A study of Mus musculus with 12 samples.

Results

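Transcript levels in the ileal mucosa of 3 ERBB3-dIE mice were compared with those of 4 Erbb3-FF mice of the same litter, labelled litter A. The libraries were taken by their litter label and are 7 of the 12 in the study: Erbb3-FF mice 3, 4, 5 and 6 and ERBB3-dIE mice 4, 5 and 6. Each was an mRNA library from the scraped ileal mucosa of 1 mouse at baseline, and a scraping can hold connective tissue, immune cells and muscle besides epithelium. Not given in the sources used here are the part of Erbb3 that was altered, the driver of the alteration, and the age and sex of the mice. The other 5 libraries, from 2 Erbb3-FF and 3 ERBB3-dIE mice of litter B, were used to show whether a difference seen in litter A had a counterpart there.

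Levels are the authors' deposited TPM, which are scaled by gene length and by the total of each library. The 13026 genes that reached 1 TPM in 3 or more of the 7 libraries were tested. A difference is ERBB3-dIE minus Erbb3-FF on the log2(TPM + 0.5) scale, which understates the change of low genes. A gene passed when its limma p-value, adjusted by the Benjamini-Hochberg method over all tested genes, was below 0.05. Replicates are single mice of 1 litter. In a bulk scraping, fewer cells of a type and less RNA per cell cannot be told apart.

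ErbB3 is a receptor of the epidermal growth factor receptor family that binds neuregulins and signals mainly as a partner of other ErbB receptors, with strong coupling to PI3 kinase. Pmp22, named with ErbB3 in the title of the series, is a small 4-span membrane protein best known from myelin that is also found at epithelial cell junctions. The ileal villus is covered by absorptive enterocytes, which digest and take up peptides, sugars, lipids and bile acids, and by mucus-secreting goblet cells, all renewed from stem cells in the crypts.

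The library of Erbb3-FF mouse 3 stood apart from its litter. On the log2 scale over the tested genes it correlated at 0.873 to 0.907 with the other 6 litter A libraries and at 0.920 to 0.947 with the 5 litter B libraries. The other litter A libraries correlated with each other at 0.910 to 0.942 and with litter B at 0.881 to 0.924. Of 34 genes that separated those 6 libraries from litter B by more than 1 on the log2 scale, mouse 3 lay nearer to litter B in 33. The same measure, with genes chosen without mouse 3 and without the library being placed, put each of the other 11 libraries nearer to its own litter in 68.9% to 97.6% of 36 to 74 such genes. The library labelled Erbb3-FF mouse 3 of litter A goes against its litter label in these values, and the reason was not tested. It is used as labelled, and the main differences, list medians and counts are given with and without it.

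Fabp6, the ileal bile acid binding protein, was at 45972 TPM in mouse 3, at 6460 to 10690 TPM in the other litter A mice and at 27010 to 36208 TPM in litter B. Fgf15, the bile acid induced hormone of the ileum, was at 165 TPM in mouse 3 and at 6.30 to 14.5 TPM in its littermates. Apoc2, a lipoprotein component, was at 545 TPM against 13.4 to 25.4 TPM. The B cell gene Cd79a was at 25.5 TPM against 2.61 to 4.98 TPM. Among genes far lower in mouse 3, Cd177 was at 1.12 TPM (14.6 to 83.6 TPM in its littermates) and the amino acid transporter Slc6a14 at 3.52 TPM (43.5 to 107 TPM). Mouse 3 lay more than 1 log2 unit from the mean of the other Erbb3-FF mice in 13.9% of tested genes, while Erbb3-FF mice 4, 5 and 6, treated in the same way, did so in 5.90% to 6.46%.

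Erbb3-FF mice 5 and 6 were rich in ribosomal sequence. The annotated genes Mir6236 and Rn18s-rs5, which carry ribosomal sequence, together took 10.2% and 10.8% of the TPM in these mice and 0.627% to 0.768% in the other 5 libraries of litter A. TPM share 1 total, so the other genes of mice 5 and 6 divide a smaller remainder. Between 13.6% and 22.1% of the TPM in litter A came from mitochondrially encoded genes.

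**Figure D1:**
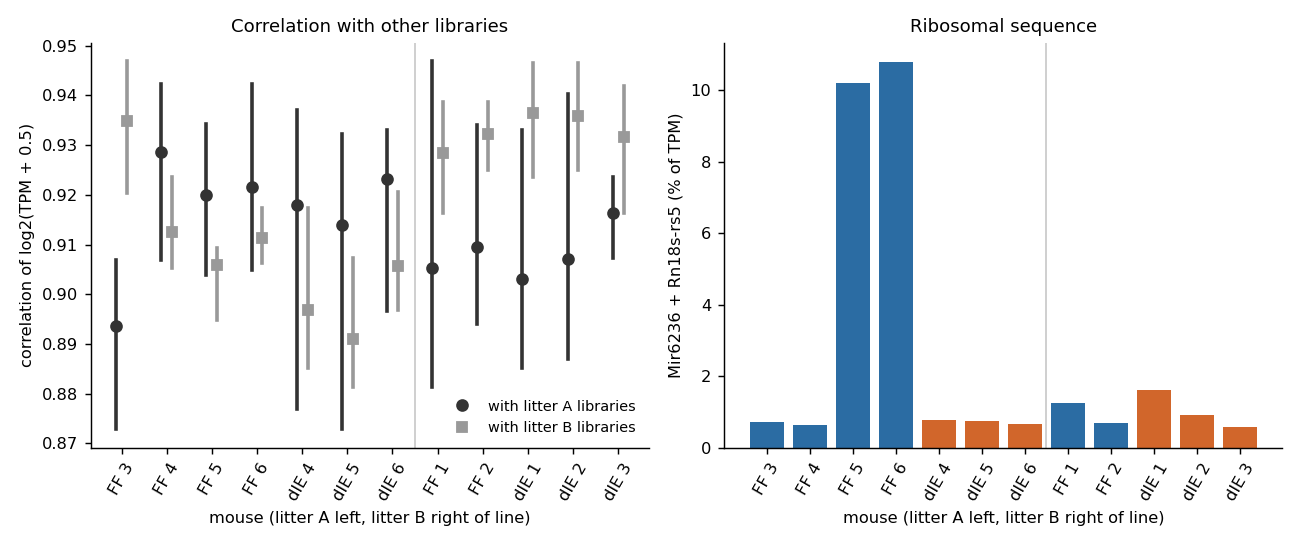
Left, Pearson correlation (vertical axis) of each library with the other litter A libraries (dark circles) and with litter B libraries (grey squares); points are means and lines run from the lowest to the highest pair. Right, share of TPM (vertical axis, percent) from the ribosomal sequence genes, with Erbb3-FF in blue and ERBB3-dIE in orange; Erbb3-FF mouse 3 is the litter A library that correlated more with litter B, and Erbb3-FF mice 5 and 6 stand at 10.2% and 10.8%.

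Genes of the colon also differed between these ileal libraries, with positive differences that did not pass the test. Car1, a carbonic anhydrase abundant in colonic epithelium, was at 0.262, 1566, 629 and 53.4 TPM in Erbb3-FF mice 3 to 6 and at 3119, 6107 and 762 TPM in ERBB3-dIE mice 4 to 6. Over the 7 tested genes of the colon list, the mean log2 level was 0.93, 4.94, 3.40 and 2.43 in the Erbb3-FF mice and 6.38, 6.71 and 4.05 in the ERBB3-dIE mice. All 7 had a positive difference in litter A, with a median of 2.82 (2.39 without mouse 3), while 6 of 7 were negative in litter B, with a median of −0.39. None passed the limma test, and 2 had an unadjusted p below 0.05: the goblet cell product Retnlb (difference 5.55, SE 1.14, adjusted p = 0.129; 4.76 and 0.115 without mouse 3) and the glycosyltransferase gene B3galt5 (2.82, SE 0.61, adjusted p = 0.136; 2.57 and 0.152 without it). Smooth muscle genes were high in ERBB3-dIE mice 4 and 5, where the list's mean log2 level was 4.04 and 3.98, and lay between 1.32 and 2.80 in the other 5 mice, ERBB3-dIE mouse 6 included.

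The targeted gene did not separate the genotypes. Erbb3 was at 110, 98.4, 87.3 and 120 TPM in Erbb3-FF mice 3 to 6 and at 105, 104 and 120 TPM in ERBB3-dIE mice 4 to 6. The groups overlapped, with means of 104 ± 14.4 TPM (SD, n = 4) and 110 ± 9.10 TPM (SD, n = 3). The difference was 0.09 (SE 0.14, 95% interval −0.23 to 0.41, limma adjusted p = 0.755) and 0.12 without mouse 3, and a 2-sided exact permutation test gave p = 0.514. A gene-level sum still counts transcripts that lack some exons, so this value does not check the genotype labels.

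Of the 13026 genes, 10 passed in litter A (0.0768%), 7 higher in ERBB3-dIE (0.0537%) and 3 lower (0.023%). Of these, 4 are named protein-coding genes, and the other 6 are predicted genes, pseudogenes or clone names, of which 5 were listed at 0 in all 4 Erbb3-FF mice. Of the 7 higher genes, 6 (these 5 and Myo18b) reached 1 TPM only in the 3 ERBB3-dIE mice and so were tested only because of the group in which they are high. Their calls are tied to that filter and are given as a description. The 4 named genes are Pmp22 and Fhl1, which fell, and Notch4 and Myo18b, which rose. In litter B 7 of the 10 had the same sign, beside 58.9% of all tested genes. These shares are not comparable, because 6 of the 10 entered the test only through the ERBB3-dIE mice, and no conclusion is drawn from them. The split of calls depends on how the libraries are scaled: median-of-ratios scaling gave 9 higher and 12 lower, quantile normalization 8 and 12, and upper-quartile scaling 9 and 9.

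Pmp22 was the clearest fall. It stood at 737, 775, 548 and 790 TPM in Erbb3-FF mice 3 to 6 and at 250, 226 and 200 TPM in ERBB3-dIE mice 4 to 6. The groups did not overlap, and mouse 3 lay within the range of its littermates. The mean was 712 ± 112 TPM (SD, n = 4) against 225 ± 24.9 TPM (SD, n = 3), so that ERBB3-dIE mice held 31.6% of the Erbb3-FF level. The difference was −1.65 (SE 0.16, 95% interval −2.03 to −1.27, limma adjusted p = 0.0297) and −1.63 without mouse 3 (adjusted p = 0.035). A 2-sided exact permutation test gave p = 0.0571, which is the floor for 35 relabellings, so this design cannot reach 0.05 by permutation. Without Erbb3-FF mice 5 and 6 the difference was −1.75 with an adjusted p of 0.0715. With the ribosomal genes removed it was −1.72 (adjusted p = 0.0184). With a covariate it missed the threshold, at −1.68 (adjusted p = 0.129) with the smooth muscle level and −1.71 (0.425) with the colon gene level. Pmp22 also missed it without Erbb3-FF mouse 4 (adjusted p = 0.109) or 6 (0.0842) and without ERBB3-dIE mouse 4 (0.0776), 5 (0.169) or 6 (0.0872), with differences between −1.73 and −1.57. In litter B, which shares no mouse with litter A, Pmp22 was at 605 and 701 TPM in Erbb3-FF and at 149, 135 and 217 TPM in ERBB3-dIE.

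Fhl1, a LIM-domain protein of muscle and other tissues, was at 55.5, 33.1, 37.2 and 49.2 TPM in the Erbb3-FF mice and at 10.3, 13.1 and 12.6 TPM in the ERBB3-dIE mice. Its difference was −1.80 (SE 0.20, limma adjusted p = 0.0482) and −1.68 without mouse 3, and litter B showed −1.67. All 3 ERBB3-dIE mice lay below all 4 Erbb3-FF mice. With the smooth muscle level as a covariate the difference was −1.70 (adjusted p = 0.17), and with the colon gene level −1.41 (0.425). It also missed the threshold with a pseudocount of 0.1 (adjusted p = 0.0553), a filter of 5 TPM (0.0572), no variance trend (0.0643) and without Erbb3-FF mice 5 and 6 (0.259). The call was lost on leaving out any single mouse other than Erbb3-FF mouse 3 (adjusted p from 0.0633 to 0.203).

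Notch4, the Notch family receptor of endothelial cells, was at 0.324, 1.1, 0.687 and 1.21 TPM in the Erbb3-FF mice and at 9.30, 8.37 and 9.16 TPM in the ERBB3-dIE mice. The difference was 2.88 (SE 0.28, limma adjusted p = 0.0295) and 2.67 without mouse 3 (adjusted p = 0.00921). Litter B did not show this split, since ERBB3-dIE mice 1 and 2 were at 0.617 and 0.564 TPM, Erbb3-FF mice 1 and 2 at 1.23 and 0.276 TPM, and ERBB3-dIE mouse 3 alone was higher at 4.75 TPM. The interaction of litter and genotype for Notch4 was −2.21 (limma adjusted p = 0.415). Of the 7 tested genes of the endothelial list, 0 had ranges that did not overlap; the mean log2 level of the list was −0.06 to 1.23 in Erbb3-FF and 1.14 to 1.70 in ERBB3-dIE. Notch4 missed the threshold with a pseudocount of 0.1 (adjusted p = 0.0735), a filter of 5 TPM (0.083), the smooth muscle covariate (0.129), the colon covariate (0.425) and without Erbb3-FF mice 5 and 6 (0.158). The call for Notch4 was kept without Erbb3-FF mouse 6 (adjusted p = 0.0392) and lost without any of mice 4 and 5 of Erbb3-FF and 4, 5 and 6 of ERBB3-dIE (0.0623 to 0.158).

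Myo18b, an unconventional myosin, was at 0.0359, 0, 0 and 0.0359 TPM in the Erbb3-FF mice and at 1.52, 1.41 and 1.60 TPM in the ERBB3-dIE mice. It passed with an adjusted p of 0.0482 in the limma fit, after entering the test only through the 3 ERBB3-dIE libraries. Litter B gave 1.66 to 1.93 TPM in ERBB3-dIE against at most 0.0596 TPM in Erbb3-FF. The genotypes did not overlap in either litter. Myo18b missed the threshold with a pseudocount of 0.1 (adjusted p = 0.112), quantile normalization (0.0723), a robust fit (0.0712), the smooth muscle covariate (0.155), the colon covariate (0.488) and without Erbb3-FF mice 5 and 6 (0.256). The call was lost on leaving out any single mouse other than Erbb3-FF mouse 3 (adjusted p from 0.0768 to 0.269).

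**Figure D2:**
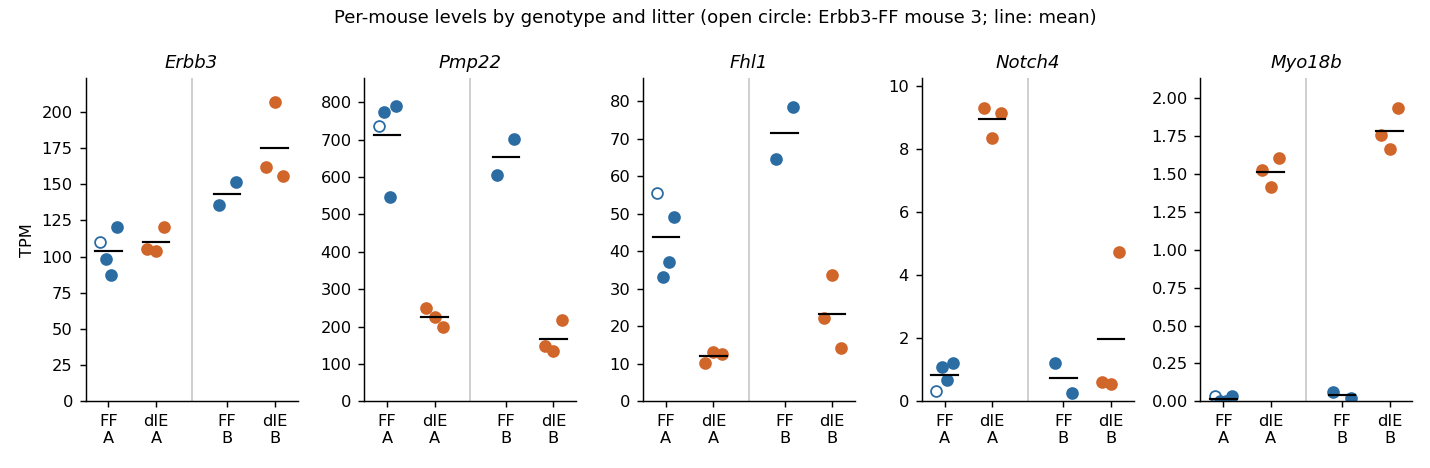
TPM per mouse (vertical axes from 0) of Erbb3 and the 4 named protein-coding genes that passed in litter A, by genotype and litter; circles are mice, the open circle is Erbb3-FF mouse 3 and lines are means. Erbb3 overlapped between genotypes in litter A, Pmp22 and Fhl1 lay lower and Myo18b higher in ERBB3-dIE of both litters, and Notch4 was above 8 TPM only in ERBB3-dIE mice of litter A.

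Without Erbb3-FF mouse 3, the 10 genes still passed and the count became 44 (0.338%), 22 in each direction (0.169% each). Of these 44, 29 are named protein-coding genes, and 25 of the 29 had the same sign in litter B, beside 58.6% of all tested genes. The added falls included products of absorptive enterocytes. Fabp2, the intestinal fatty acid binding protein, was at 8042 TPM in mouse 3, at 3007, 2450 and 2820 TPM in the other Erbb3-FF mice and at 1006, 1059 and 1172 TPM in ERBB3-dIE. Its difference was −1.35 without mouse 3 (SE 0.12, limma adjusted p = 0.0261) and −1.74 with it (SE 0.40, adjusted p = 0.14). Mouse 3 lay above its littermates, so that including it made the difference larger and its error larger still.

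In the next genes, too, mouse 3 was the highest Erbb3-FF library, and the fall passed once it was left out. Alpi, intestinal alkaline phosphatase, was at 333 TPM in mouse 3, at 130, 124 and 152 TPM in Erbb3-FF mice 4 to 6 and at 28.7, 33.3 and 49.8 TPM in ERBB3-dIE; its difference was −1.88 without mouse 3 (limma adjusted p = 0.0375) and −2.20 with it (adjusted p = 0.107). Mme, the brush border peptidase neprilysin, was at 57.5 TPM in mouse 3, 9.50 to 15.5 TPM in its Erbb3-FF littermates and 1.77 to 3.28 TPM in ERBB3-dIE. Creb3l3, a transcription factor of lipid handling, was at 79.4 TPM in mouse 3, 18.2 to 20.8 TPM in mice 4 to 6 and 5.59 to 8.06 TPM in ERBB3-dIE. Tmigd1 (a brush border adhesion protein), the transporter Abcg2, glycerol kinase Gk and Susd2 also fell, with differences of −1.71, −0.83, −1.58 and −2.69 without mouse 3. The acetyltransferase family genes Nat8 and Nat8f5 fell by 2.48 and 2.62 without mouse 3.

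Genes of several kinds were among the added rises. Nupr1, a stress-induced nuclear protein listed here with Paneth cell genes, was at 45.4 TPM in mouse 3, at 65.3, 87.3 and 69.3 TPM in Erbb3-FF mice 4 to 6 and at 158, 160 and 165 TPM in ERBB3-dIE (difference 1.13 without mouse 3, limma adjusted p = 0.0375). The interferon-inducible membrane protein genes Ifitm1 and Ifitm3 and the class I histocompatibility gene H2-Q7 rose by 1.44, 0.87 and 1.86 without mouse 3, as did Rgs2, a regulator of G protein signalling, by 1.07. H2-Q7, Ifitm1 and Ifitm3 belong to families of near-identical copies, so their counts may be shared with relatives. Lyz2, the lysozyme of macrophages and a close copy of the Paneth cell gene Lyz1, was at 56.1 TPM in mouse 3, at 20.8, 24 and 21.3 TPM in mice 4 to 6 and at 45.2, 52.5 and 47.6 TPM in ERBB3-dIE. Its difference was 0.79 with mouse 3 (limma adjusted p = 0.288) and 1.12 without it (adjusted p = 0.0286). In litter B Lyz2 differed the other way, at 181 and 99.8 TPM in Erbb3-FF and 21.0 to 28.4 TPM in ERBB3-dIE.

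The genotype ranges did not overlap in 2491 genes (19.1%), 1553 with ERBB3-dIE above (11.9%) and 938 below (7.2%). Without mouse 3 these were 2028 above (15.6%) and 1061 below (8.15%). Removing the ribosomal sequence genes and rescaling turned this split around, to 1031 above (7.92%) and 1511 below (11.6%). The median difference over all genes moved from 0.08 to 0.01 at the same time, and there were 7 higher (0.0537%) and 4 lower (0.0307%) calls, which included the original 10. Leaving out Erbb3-FF mice 5 and 6 altogether gave 3 calls in each direction (0.023% each), of which 1 was among the original 10, and leaving out mice 3, 5 and 6 left 1 Erbb3-FF library and 0 calls in limma, with 532 higher and 516 lower genes at an unadjusted p below 0.05.

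Among genes of at least 5 TPM, those with the smallest p that did not overlap lay in both directions. Higher in ERBB3-dIE were Kdelr3 and Tmed3, of the early secretory pathway, at 21.6 to 22.1 TPM against 9.65 to 12.7 TPM and at 55.1 to 60 TPM against 32.6 to 38.4 TPM. The filament protein gene Vim was at 30.2 to 39.0 TPM against 14.7 to 19.4 TPM. Lower in ERBB3-dIE were Scin, an actin-severing protein, at 44.0 to 60.2 TPM against 98.7 to 133 TPM, and Rab31, a vesicle traffic GTPase, at 2.43 to 2.59 TPM against 4.68 to 6.28 TPM. None of these 5 passed in the limma fit of all 7 libraries (adjusted p from 0.0954 to 0.103). Of the 24 genes named in this way, 20 had the same sign in litter B, beside 58.9% of all tested genes. Over all genes with an unadjusted p below 0.05, 91.8% of the 989 lower ones (7.59% of all) and 60.6% of the 1331 higher ones (10.2% of all) kept their sign in litter B, where 63.0% of all tested genes were negative.

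Genes of nutrient uptake lay lower in ERBB3-dIE as groups, although none of those listed passed singly with all 7 libraries. For this and every later list, the share of all tested genes is 7.2% wholly below and 11.9% wholly above. At an unadjusted p below 0.05 in limma it is 7.59% lower and 10.2% higher. With ribosomal genes removed, 11.6% of all genes lay wholly below and 7.92% wholly above. Of 26 tested genes of lipid absorption and chylomicron assembly, 17 had ERBB3-dIE ranges wholly below Erbb3-FF and 0 above, with a median difference of −0.76 (−0.58 without mouse 3, −0.48 in litter B), beside 7.2% and 11.9% of all tested genes and an all-gene median of 0.08. In limma 19 were lower and 1 higher at an unadjusted p below 0.05, and without mouse 3 Fabp2 and Creb3l3 passed. Apoa1, the main protein of high density lipoprotein, was at 8868, 3117, 3464 and 3701 TPM in Erbb3-FF mice 3 to 6 and at 685, 793 and 1322 TPM in ERBB3-dIE (difference −2.28, SE 0.41, adjusted p = 0.111; −1.93 and 0.0535 without mouse 3). Mttp, which loads lipid onto nascent chylomicrons, was at 99.4 to 192 TPM against 40.0 to 72.2 TPM, and the fatty acid transporter Slc27a4 at 108 to 250 TPM against 48.5 to 68.5 TPM. Rbp2, a retinol carrier of proximal enterocytes, was at 143 to 469 TPM against 40.1 to 59.1 TPM. It comes from the list of proximal small intestine genes, which was mixed. Of its 7 tested genes 4 were lower and 3 higher, with 2 wholly below and 0 above (median −0.45, −0.35 without mouse 3).

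Of 23 genes of peptide and amino acid digestion and uptake, 14 lay wholly below and 0 above, beside 7.2% and 11.9% of all genes. The median was −0.95 (−0.79 without mouse 3). In litter B the median was −0.21. In limma 16 were lower at an unadjusted p below 0.05, and without mouse 3 Mme passed. Naaladl1, a brush border peptidase, was at 2741, 1348, 1431 and 1751 TPM in Erbb3-FF and at 517, 515 and 856 TPM in ERBB3-dIE, and Ggt1, gamma-glutamyltransferase, at 306 to 736 TPM against 103 to 177 TPM. The amino acid carrier genes Slc3a1 and Slc7a7 were at 173 to 237 TPM against 83.9 to 133 TPM and at 85.1 to 143 TPM against 37.0 to 63.1 TPM. Of 10 sugar genes 6 lay wholly below (median −0.81, −0.62 without mouse 3, 0.03 in litter B), among them the trehalase gene Treh, at 18.8 to 79.5 TPM against 6.83 to 13.0 TPM. The glucose carrier Slc5a1 overlapped, at 216 to 344 TPM against 124 to 221 TPM.

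The brush border list had 12 of 19 genes wholly below, beside 7.2% of all genes. All 19 were negative, with a median of −0.66 (−0.60 without mouse 3, −0.32 in litter B). Ezr, the linker of microvillar actin to the membrane, was at 384 to 569 TPM against 239 to 332 TPM, and Cobl, an actin nucleator, at 40.1 to 61.8 TPM against 24.8 to 34.1 TPM. Some genes of the villus tip list, Ada and Nt5e among them, showed larger differences, while Cdh1 of this list differed by −0.15. Without mouse 3 the medians of the villus tip and brush border lists were alike, at −0.61 and −0.60. Ada, adenosine deaminase, was at 177, 123, 78.6 and 107 TPM in Erbb3-FF and at 29.0, 8.71 and 26.2 TPM in ERBB3-dIE (difference −2.59, SE 0.45, limma adjusted p = 0.107; −2.39 and 0.108 without mouse 3). Nt5e, which makes adenosine at the cell surface, was at 9.46, 9.46, 5.27 and 9.43 TPM against 0.567, 1.00 and 1.87 TPM (−2.48, SE 0.33, adjusted p = 0.0853; −2.41 and 0.0711 without mouse 3), and litter B gave −3.02. The tip keratin Krt20 and the nucleoside carrier Slc28a2 were also wholly lower. In all, 6 of 11 villus tip genes were so, beside 7.2% of all genes (median −0.75, −0.61 without mouse 3, −0.82 in litter B).

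Of the 11 tested ileal bile acid and region genes, 5 lay wholly below, beside 7.2% of all genes (median −0.82, −0.06 in litter B). Slc10a2, the ileal bile acid carrier, was at 249, 164, 215 and 166 TPM in Erbb3-FF and 70.7, 48.2 and 111 TPM in ERBB3-dIE (difference −1.43, SE 0.29, limma adjusted p = 0.128; −1.31 and 0.135 without mouse 3). The list's median was −0.54 without mouse 3. Of 17 enterocyte identity factors 5 lay wholly below, also beside 7.2% of all genes, with a median of −0.15 with and without mouse 3. Among them Hnf4g, a nuclear receptor, was at 101 to 106 TPM in all 4 Erbb3-FF mice and at 71.3, 44.7 and 72.7 TPM in ERBB3-dIE.

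The colon list was lowest in Erbb3-FF mouse 3 (mean log2 level 0.93), where the lipid list was highest (7.02). It was highest in ERBB3-dIE mice 4 and 5 (6.38 and 6.71), where the lipid list was lowest (5.35 and 5.22). Erbb3-FF mice 4 to 6 showed no such order, with colon levels of 4.94, 3.40 and 2.43 and lipid levels of 5.99, 5.84 and 6.06. With the mean level of the colon list as a covariate, the median differences were −0.39 for lipid, −0.25 for peptide, −0.23 for sugar, −0.36 for brush border, −0.41 for villus tip and −0.10 for ileal region genes, and the fit called 1 gene higher and 0 lower (469 and 251 at an unadjusted p below 0.05). Without ERBB3-dIE mice 4 and 5, where colon genes were highest, 1 ERBB3-dIE library remained and the corresponding medians were −0.61, −0.45, −0.43, −0.44, −1.16 and −0.54. The part of colon gene content in these results was not tested, and with 7 libraries it cannot be told apart from genotype.

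**Figure D3:**
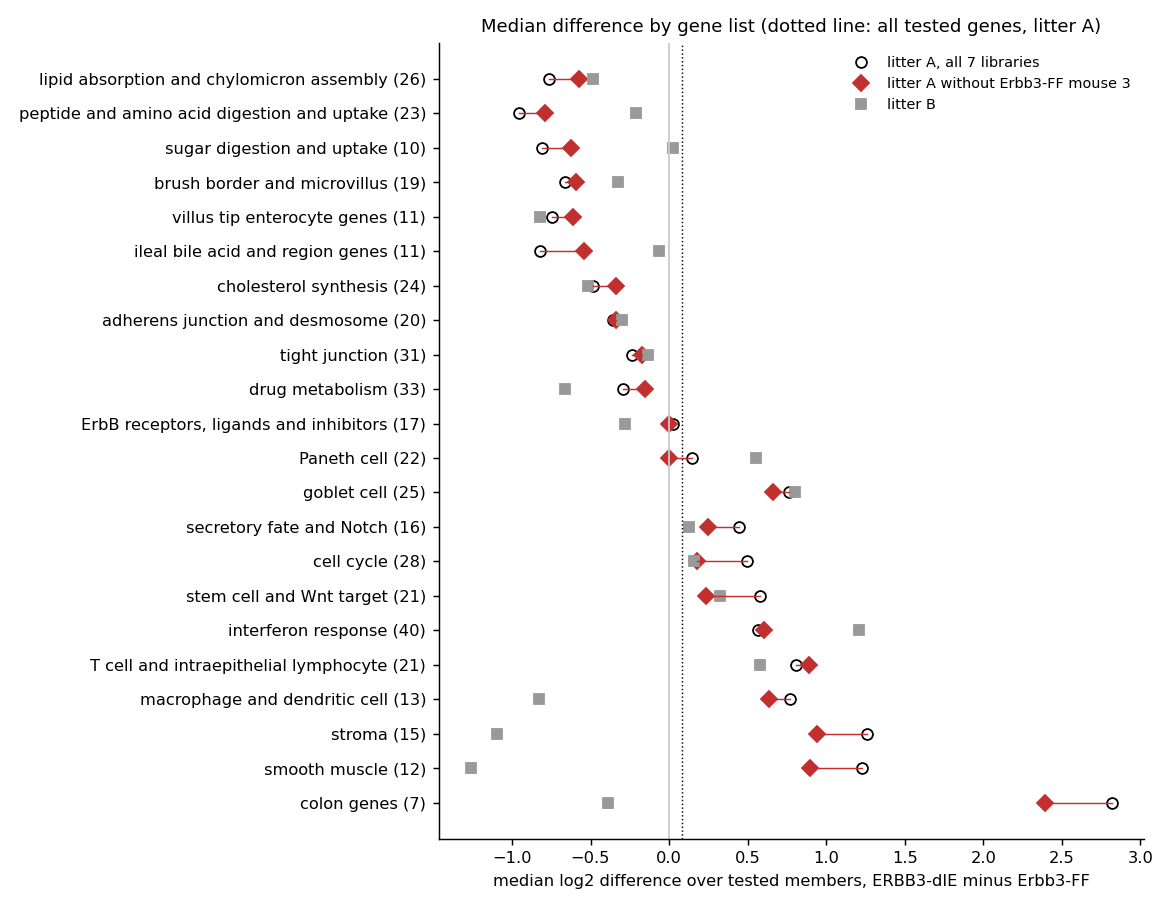
Median log2 difference (horizontal axis, ERBB3-dIE minus Erbb3-FF) over the tested members of each gene list, with the number of members in parentheses and a dotted line at 0.08 for all genes; open circles use all 7 litter A libraries, red diamonds leave out Erbb3-FF mouse 3 and grey squares are litter B. Goblet and absorptive lists lie on the same side in both litters except sugar genes, and macrophage, stroma, smooth muscle and colon genes are positive in litter A and negative in litter B.

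Goblet cell genes lay higher in ERBB3-dIE as a group. Of 25 tested, 17 had ranges wholly above Erbb3-FF and 1 wholly below, beside 11.9% and 7.2% of all genes. The median was 0.77 (0.66 without mouse 3, when 21 lay above, beside 15.6% of all genes). In litter B 24 of 25 were positive too, with a median of 0.80. None passed in limma with all 7 libraries or without mouse 3, and 18 were higher at an unadjusted p below 0.05. Agr2, a disulfide isomerase needed to make mucin, was at 914, 1675, 1274 and 1327 TPM in Erbb3-FF and at 2914, 2531 and 2744 TPM in ERBB3-dIE (difference 1.1, SE 0.21, adjusted p = 0.116; 0.95 and 0.071 without mouse 3). Spdef, the transcription factor of goblet cell maturation, was at 19.1, 29.7, 23.3 and 25.0 TPM against 61.7, 46.6 and 50.8 TPM (1.12, SE 0.18, adjusted p = 0.103; 1.01 and 0.071 without it). Rep15 was at 11.4 to 17.2 TPM against 23.4 to 26.9 TPM, and Atoh1, which commits crypt cells to the secretory fate, at 17.2 to 22.5 TPM against 28.5 to 35.7 TPM. The goblet median was 0.54 with the colon covariate and 0.77 without ERBB3-dIE mice 4 and 5, where 1 ERBB3-dIE library remained.

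Of 16 genes of secretory fate and Notch signalling, 6 lay wholly above, beside 11.9% of all genes. The median was 0.44 (0.25 without mouse 3), and Notch4 was the 1 that passed. Paneth cell genes had a median of 0.14 (0.00 without mouse 3) with 4 of 22 wholly above, also beside 11.9% of all genes. Their median moved from −0.05 to 0.46 as single mice were left out, lowest without ERBB3-dIE mouse 6 and highest without Erbb3-FF mouse 5, and was 0.57 without Erbb3-FF mice 5 and 6 and 0.78 without ERBB3-dIE mice 4 and 5. In this list the metalloproteinase Mmp7 was at 38.0 to 131 TPM against 140 to 234 TPM. The enteroendocrine peptide genes Tac1 and Gcg were at 6.88 to 18.3 TPM against 26.8 to 40.4 TPM and at 83.3 to 164 TPM against 189 to 210 TPM, while the list's median was 0.15 (0.33 without mouse 3). These 2 were the only ones of its 18 tested genes wholly above, a share close to the 11.9% of all genes, and 1 lay wholly below. Cell cycle genes had a median of 0.49 and stem cell and Wnt target genes one of 0.58 with all 7 libraries. Without mouse 3, which had the lowest level of both lists in litter A, the medians were 0.18 and 0.23, and without Erbb3-FF mice 5 and 6 they were 0.83 and 0.99. With the colon covariate the medians of cell cycle genes and of stem cell and Wnt target genes were 0.04 and 0.02. Prom1, a crypt membrane protein, was at 28.7, 64.9, 35.3 and 49.6 TPM in Erbb3-FF and at 137, 122 and 78.6 TPM in ERBB3-dIE.

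**Figure D4:**
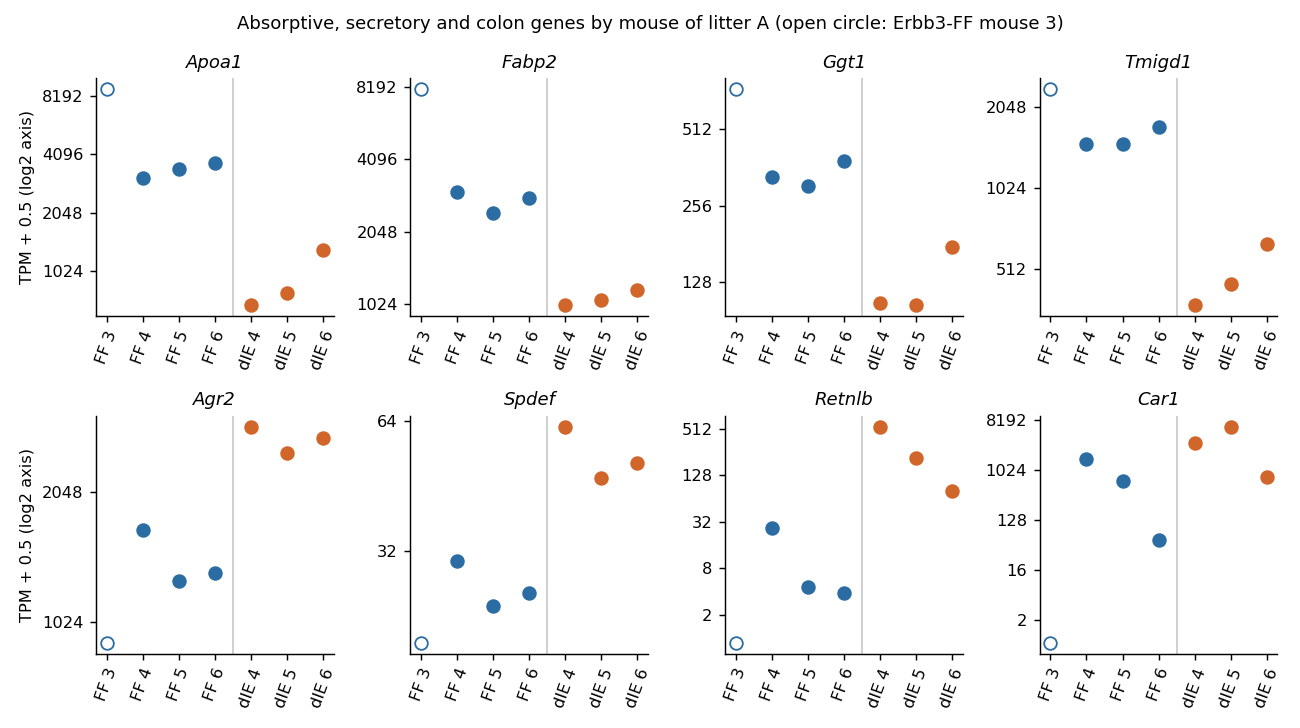
TPM + 0.5 on log2 axes (vertical) for each litter A mouse (horizontal), with Erbb3-FF in blue, ERBB3-dIE in orange and Erbb3-FF mouse 3 as an open circle. In Apoa1, Fabp2, Ggt1 and Tmigd1 mouse 3 is the highest and the ERBB3-dIE mice the lowest, in Agr2, Spdef, Retnlb and Car1 mouse 3 is the lowest, and Car1 overlaps between genotypes.

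Of 26 antimicrobial and stress-induced genes of the epithelium, 8 lay wholly above and 1 wholly below, beside 11.9% and 7.2% of all genes. The median was 0.63 (0.52 without mouse 3, 0.40 without ERBB3-dIE mouse 4). Reg4 was at 84.7, 907, 555 and 506 TPM in Erbb3-FF and at 2252, 2690 and 1485 TPM in ERBB3-dIE. The serum amyloid genes Saa1 and Saa3 were at 61.6 to 285 TPM against 362 to 1210 TPM and at 0.535 to 6.77 TPM against 18.2 to 25.3 TPM. Retnlb, at 0.367, 26.3, 4.00 and 3.36 TPM against 547, 215 and 78.5 TPM, belongs to the colon list as well. None passed in limma, with 8 higher at an unadjusted p below 0.05. Saa3 differed by −0.94 in litter B.

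All 21 T cell and intraepithelial lymphocyte genes had a positive difference, and 11 lay wholly above, beside 11.9% of all genes. The median was 0.81 (0.89 without mouse 3, 0.58 in litter B). Cd8a, the co-receptor of cytotoxic T cells, was at 6.16, 4.60, 4.30 and 4.44 TPM in Erbb3-FF and at 8.89, 7.59 and 12 TPM in ERBB3-dIE (difference 0.88, SE 0.20, limma adjusted p = 0.136; 0.99 and 0.103 without mouse 3). Gzma, a granule protease, was at 72.9, 62.3, 36.5 and 44.7 TPM against 129, 88.3 and 156 TPM (1.21, SE 0.29, adjusted p = 0.15; 1.36 and 0.113 without it). Cd7 was at 9.44 to 16.3 TPM against 21.9 to 36.3 TPM, and the T cell receptor constant gene Trbc2, which has a near-identical copy, at 6.03 to 10.1 TPM against 14.8 to 22.8 TPM. No member of the list passed, and 13 were higher at an unadjusted p below 0.05.

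Interferon response genes had a median of 0.56 (0.60 without mouse 3, 0.32 without Erbb3-FF mice 5 and 6) in litter A and of 1.21 in litter B. Of 40 tested, 5 lay wholly above, a share close to that of all genes. None passed in limma, and 15 were higher at an unadjusted p below 0.05. Without mouse 3, 10 lay wholly above, beside 15.6% of all genes. Ubd, a ubiquitin-like protein, was at 25.0, 19.4, 2.97 and 4.42 TPM in Erbb3-FF and at 48.3, 43.0 and 131 TPM in ERBB3-dIE. The guanylate binding protein genes Gbp3 and Gbp4 were at 1.33 to 2.12 TPM against 3.10 to 4.49 TPM and at 0.815 to 1.71 TPM against 2.08 to 4.70 TPM.

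Genes of macrophages and connective tissue lay higher in ERBB3-dIE of litter A and lower in ERBB3-dIE of litter B. Of 13 macrophage and dendritic cell genes 7 lay wholly above and 1 below, beside 11.9% and 7.2% of all genes (median 0.77, 0.64 without mouse 3, 0.65 with the colon covariate). All 13 were negative in litter B, with a median of −0.83. C1qa and C1qc, complement genes of tissue macrophages, were at 8.68 to 15.2 TPM against 19.3 to 25.8 TPM and at 4.58 to 7.09 TPM against 10.2 to 15.3 TPM. Cd14 was at 6.12 to 8.66 TPM against 12.7 to 16.8 TPM, and Aif1, a gene of the follicle list, at 1.69 to 2.88 TPM against 5.11 to 7.39 TPM. The follicle list itself was mixed, with 8 of 12 tested genes higher and 4 lower. In it 4 lay wholly above and 3 wholly below, beside 11.9% and 7.2% of all genes (median 0.37, 0.54 without mouse 3). Of 15 stromal genes 11 lay wholly above, beside 11.9% of all genes (median 1.26, 0.94 without mouse 3, 0.45 with the colon covariate). All 15 were negative in litter B (median −1.10). Pdgfra, a receptor of fibroblasts, was at 0.324 to 0.854 TPM against 1.85 to 4.40 TPM, and the matrix protein gene Sparc at 2.54 to 7.68 TPM against 8.36 to 17.3 TPM.

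With all 7 libraries no gene of the macrophage or stromal list passed in limma, while 8 macrophage and 12 stromal genes were higher at an unadjusted p below 0.05. Smooth muscle genes had a median of 1.23 in litter A, of 0.90 without Erbb3-FF mouse 3, of 0.56, 0.69 and 2.37 without ERBB3-dIE mouse 4, 5 or 6 alone, of −0.91 without ERBB3-dIE mice 4 and 5, and of −1.26 in litter B.

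The test of litter B minus litter A passed for 1 gene of all 13026 (0.00768%), a predicted gene, and for 43 without mouse 3, while 9.7% of genes had an unadjusted p below 0.05. The next smallest p-values were those of Trf, transferrin, Bgn, a matrix proteoglycan, and Pla2g7, a macrophage lipase (limma adjusted p = 0.0544 each). Trf was at 4.25 to 5.97 TPM in Erbb3-FF and 8.71 to 13.9 TPM in ERBB3-dIE of litter A, and at 22 and 13.3 TPM against 4.03 to 6.21 TPM in litter B. Without mouse 3 the interaction of Trf, Bgn and Pla2g7 passed, with adjusted p of 0.0166, 0.0253 and 0.0143. The litters were separate sets of mice, and the depth of scraping is not given in the sources used here, so litter and tissue content cannot be told apart here.

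Of 31 tested tight junction genes 11 lay wholly below and 1 above, beside 7.2% and 11.9% of all genes (median −0.24, −0.17 without mouse 3). Pmp22 alone passed in limma, with 9 genes lower at an unadjusted p below 0.05. Cldn8, a sealing claudin, was at 6.73 to 9.49 TPM against 4.31 to 5.28 TPM. Among the more abundant claudins 3 overlapped and Cldn7 did not. Cldn2 was at 121 to 146 TPM against 124 to 149 TPM, Cldn3 at 305 to 433 TPM against 291 to 358 TPM, Cldn15 at 126 to 172 TPM against 147 to 192 TPM, and Cldn7, the most abundant of the 4, at 1076 to 1602 TPM against 945 to 1033 TPM. Adherens junction and desmosome genes had 6 of 20 wholly below and a median of −0.36 (−0.34 without mouse 3). The intestinal cadherin Cdh17 was at 400 to 511 TPM against 289 to 362 TPM and desmoplakin, Dsp, at 65.7 to 91.4 TPM against 52.6 to 56.8 TPM. Perp, a desmosomal relative of Pmp22, was at 130 to 195 TPM against 110 to 119 TPM. None of the adherens junction and desmosome list passed in limma, and 10 were lower and 1 higher at an unadjusted p below 0.05. The Pmp22 and Emp family list did not move as 1 group. Of its 5 tested genes 3 were lower and 2 higher, with 2 wholly below and 1 wholly above (median −0.28, −0.34 without mouse 3).

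Of 17 tested ErbB receptors, ligands and inhibitors, 1 lay wholly above and 3 wholly below, beside 11.9% and 7.2% of all genes. The median was 0.02 (0.00 without mouse 3, −0.04 with ribosomal genes removed). None passed in limma, and 1 was higher and 2 were lower at an unadjusted p below 0.05. Erbb4 was listed at 0 in all 7 libraries, and the ligands Nrg2, Nrg3, Nrg4, Egf and Epgn lay under the level needed for testing. The neuregulin gene Nrg1 was not found by its symbol among the deposited genes, so this ligand was not examined. Erbb2, the preferred partner of ErbB3, was at 40.2 to 53.4 TPM against 39.1 to 52.3 TPM, and Egfr at 3.37 to 7.80 TPM against 4.63 to 8.94 TPM. Among ligands, Hbegf was at 24.9, 11.3, 15.5 and 16.5 TPM in Erbb3-FF and at 10.1, 9.78 and 6.97 TPM in ERBB3-dIE, and Ereg at 6.86 to 17.2 TPM against 4.68 to 5.65 TPM. Btc lay above, at 1.33 to 2.01 TPM against 2.18 to 2.51 TPM. Areg and Tgfa overlapped, as did the feedback inhibitor Errfi1, at 18.9 to 25.3 TPM against 10.4 to 20.2 TPM. Of 14 ERK feedback genes 4 lay wholly above, beside 11.9% of all genes. Among them was Etv5, at 0.632 to 4.32 TPM against 4.85 to 8.11 TPM, for which mouse 3 gave the lowest value. The list's median was 0.18, and 0.16 without mouse 3.

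All 24 tested cholesterol synthesis genes had a negative difference, and 5 lay wholly below, beside 7.2% of all genes. The median was −0.49 (−0.34 without mouse 3, −0.52 in litter B), but 0.07 with the colon covariate. None passed in limma, and 7 were lower at an unadjusted p below 0.05. Of 33 drug metabolism genes 9 lay wholly below and 1 above (median −0.29, −0.15 without mouse 3, −0.64 without Erbb3-FF mice 5 and 6), and the fatty acid hydroxylase Cyp4f14 was at 343 to 614 TPM against 134 to 223 TPM. Angptl4, an inhibitor of lipoprotein lipase, was at 16.3 to 31.3 TPM against 6.73 to 9.92 TPM, while its list of fatty acid oxidation genes had a median of 0.08 (0.20 without mouse 3, −0.21 without Erbb3-FF mice 5 and 6). Among circadian clock genes, of which 4 of 14 lay wholly below and 1 above (median −0.50, −0.28 without mouse 3, −0.30 without ERBB3-dIE mouse 4), Npas2 was at 14.4 to 20.8 TPM against 9.20 to 10.1 TPM.

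**Figure D5:**
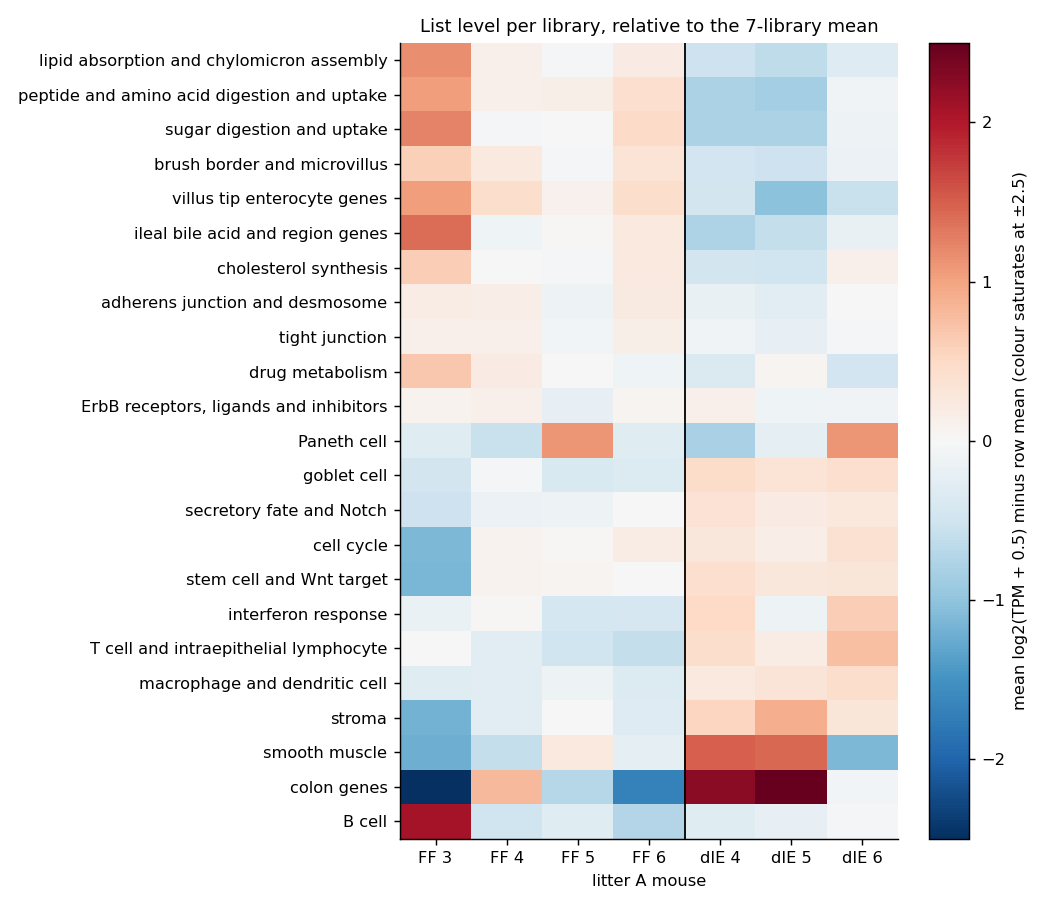
Mean log2(TPM + 0.5) of each gene list (rows) in each litter A library (columns), as the difference from the row's mean over the 7 libraries; blue is lower and red higher. Erbb3-FF mouse 3 is highest in absorptive and B cell genes and lowest in cell cycle, stem, stroma, smooth muscle and colon genes, and ERBB3-dIE mice 4 and 5 are highest in smooth muscle and colon genes.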

How the data were processed

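The deposited table held TPM for 55891 genes in 12 libraries, 1 column each, all used (0 per-sample columns were left out). RNA was isolated with an Omega Bio-Tek kit and sequenced on a NextSeq as single reads of 75 bases from Illumina stranded mRNA libraries, per the labels' protocols. CASAVA, Salmon 1.10.0, DESeq2 and the build GRCm39 are named, without their roles, per the submitters' processing notes, and the annotation release is not given in the sources used here. Read counts were not used here, so depth per library is unknown and no counting interval is given.

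Differences were fitted with limma 3.58.1 (R 4.3.3) with a variance trend on log2(TPM + 0.5), 2-sided, with Benjamini-Hochberg adjustment and a threshold of 0.05. The litter comparison used the 4 means of genotype and litter over all 12 libraries. Exact permutation tests used scipy 1.17.1, and tables and plots Python 3.11.15, pandas 2.3.3 and matplotlib 3.10.9. In data simulated on the 13026 genes of the litter A comparison, the fit recovered 42.8%, 76.4%, 92% and 96.4% of genes changed by log2 1, 2, 3 and 4, and 4.11% of its calls were false. The simulation varied each gene independently and held no shift shared by the genes of a library, such as that from ribosomal sequence. These rates check the fit in that setting only and are not rates for the measured libraries.

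Genes named were Erbb3, Pmp22, those that passed, the 12 smallest p per direction without overlap (a genotype mean of 5 TPM or more), up to 4 members per list by smallest p, 4 genes for the interaction, and 8 genes per direction that set Erbb3-FF mouse 3 apart (mean of 20 TPM or more). Claudins and ErbB genes could be named in any case. Genes that passed without mouse 3 were named after their values were seen. Predicted genes and pseudogenes were counted. Lists and libraries were chosen with earlier results of these data known. Alternatives covered the pseudocount, filters, scaling, weights, covariates and leaving out mice.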

Additional observations from a re-analysis of the deposited data

Results flagged for a closer look

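In the 4 Erbb3-FF mice of litter A, 138 gene and list values were checked for 1 mouse lying apart from the other 3, and 16 did, 9 of them in mouse 3. Chance gives about 1 in 20. Genes such as Creb3l3, Abcg2, Ifitm3 and Lyz2 were named because they passed once mouse 3 was left out, so the number of such values is not to be read against that rate. Mouse 3 lay apart with Creb3l3 at 79.4 TPM (18.2 to 20.8 TPM in the other 3), Abcg2 at 613 TPM (338 to 362 TPM), Apoa1 at 8868 TPM (3117 to 3701 TPM), Lyz2 at 56.1 TPM (20.8 to 24 TPM), Ifitm3 at 11.8 TPM (43.0 to 51.5 TPM) and Cry1 at 37.2 TPM (75 to 83.0 TPM). Its mean log2 level was 2.5 for stem cell genes (3.63 to 3.74 in the other 3), 3.16 for cell cycle genes (4.31 to 4.48) and 3.99 for B cell genes (1.16 to 1.60).

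Mouse 5 lay apart with Nt5e at 5.27 TPM (9.43 to 9.46 TPM), C1qa at 15.2 TPM (8.68 to 9.28 TPM) and Cdh17 at 400 TPM (501 to 511 TPM). Its mean log2 level was 8.39 for Paneth cell genes (6.73 to 6.99), 5.64 for tight junction genes (5.84 to 5.87) and 5.81 for adherens junction genes (6.11 to 6.15). Mouse 4 lay apart with the mitochondrial ribosomal RNA mt-Rnr2 at 768 TPM (1499 to 1716 TPM).

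The genotype difference of litter B minus that of litter A was −5.19 on the log2 scale for the predicted gene Gm44379, which passed the limma interaction test. The next genes are a description only, since the share of all tested genes with the same pattern is not given here. In them the genotypes did not overlap in either litter and lay in opposite orders, without passing the interaction test with all 12 libraries. The values, as litter B minus litter A on the log2 scale, were −2.13 for Vim, −4.14 for Anxa1, −3.73 for Saa3, −1.88 for C1qa, −2.07 for C1qc, −1.71 for Cd14, −2.92 for Aif1, −2.21 for Pdgfra, −2.94 for Sparc, −2.75 for Trf, −3.26 for Bgn and −2.31 for Pla2g7.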

How the results depend on the processing

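Pmp22 kept its sign under all 27 alternatives (−1.81 to −1.57) and its call under 16, and Erbb3 lay between 0.01 and 0.28 without a call. Leaving out 1 mouse at a time gave 3 to 22 higher and 1 to 22 lower calls, 1899 to 2544 genes wholly above and 1039 to 1806 below, 1 to 43 interaction calls and Pmp22 from −1.77 to −1.57. Against 7 higher and 3 lower calls, filters above 0 and of 5 TPM gave 13 and 2 higher. Median-of-ratios, upper-quartile and quantile scaling gave 12, 9 and 12 lower, with 1596 genes wholly below under the first and 1563 under the last. Removing ribosomal genes gave 1031 above and 1511 below. Library weights gave 48 and 63 calls, the spread of all 12 libraries 57 and 96. Without Erbb3-FF mouse 3 and ribosomal genes (chosen after seeing the data) there were 26 and 40. Without Erbb3-FF mice 5 and 6 there were 3 higher, 2572 above, 2377 below and Pmp22 at −1.75; without mice 3, 5 and 6, 0 and 0, 3669 above, 3666 below and −1.78; without ERBB3-dIE mice 4 and 5, 1 and 1, 4047, 1755 and −1.81. In the latter fits the lone library is assumed to vary like the other group. The smooth muscle covariate gave 3 and 0 with Pmp22 at −1.68, and the colon covariate, added after seeing the data, 1 and 0 with −1.71. With mouse number as a replicate block there were 2 higher and 0 lower limma calls (1552 and 1213 at an unadjusted p below 0.05) and Pmp22 was at −1.63 (adjusted p = 0.0942), Notch4 at 2.67 (0.0836), Fhl1 at −1.68 (0.0873) and Myo18b at 1.98 (0.0994). The deviations of same-numbered mice correlated at only 0.15, 0.07 and −0.04, although by deviations 2 of 3 ERBB3-dIE libraries matched their own number best. By level, ERBB3-dIE mice 4, 5 and 6 all correlated best with Erbb3-FF mouse 4 among Erbb3-FF libraries (0.937, 0.924 and 0.933). The numbers name mice within a genotype and are not taken as a pairing. The single interaction call (1264 genes at an unadjusted p below 0.05) became 0 and 4 with pseudocounts of 0.1 and 1, 30 and 0 with the lower and higher filter, 3 without mitochondrial genes, 4 with a robust fit, 5 without a variance trend and 12 with weights. For changes other than fewer libraries or genes, the cause was not tested. Read depth is unknown, which limits what can be said of genes near 0 TPM.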

Other observations

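Of 24 alpha-defensin genes that reached 50 TPM in a library, 6 (Defa2, Defa21, Defa33, Defa38, Defa41 and Defa43) were more than 10 times higher in Erbb3-FF mice 3 and 5 and ERBB3-dIE mouse 6 than in any other litter A mouse. Defa2 was at 859, 0, 3016 and 0 TPM in Erbb3-FF mice 3 to 6 and at 0, 0 and 2598 TPM in ERBB3-dIE mice 4 to 6. In litter B the same 6 genes were higher in Erbb3-FF mouse 1 and ERBB3-dIE mouse 2. The split did not follow genotype or litter. The counts of these near-identical copies are uncertain. These genes were chosen after their values were seen.

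Hmga1b was at 0.236, 270, 172 and 0 TPM in the Erbb3-FF mice and at 0.212, 258 and 199 TPM in the ERBB3-dIE mice, so that levels near 0 and above 100 TPM occurred in both genotypes. Cry1, a circadian repressor, was at 37.2, 75, 83.0 and 77.0 TPM in Erbb3-FF and at 53.1, 7.21 and 7.38 TPM in ERBB3-dIE, and litter B also held 1 ERBB3-dIE mouse at 7.07 TPM beside others at 64.2 and 111 TPM. The mitochondrial ribosomal RNA mt-Rnr1 was at 1541, 879, 2008 and 1984 TPM in Erbb3-FF and at 570, 752 and 522 TPM in ERBB3-dIE (difference −1.33, limma adjusted p = 0.141).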
